A study of Mus musculus with 8 samples.

Results

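The glucocorticoid receptor gene Nr3c1, the gene for its ligand-activating enzyme Hsd11b1 and 8 genes that glucocorticoids induce were followed through the esophagus of mice without monoacylglycerol lipase (MGL). The 10 genes were taken by symbol from a deposited table of 32849 genes: Nr3c1, Hsd11b1, Fkbp5, Tsc22d3, Zbtb16, Sgk1, Cebpd, Cebpb, Mt1 and Mt2. They were chosen by their role in the pathway with the measured expression values of MGL KO against WT already known, so their differences between these groups are given as a description and support nothing. The 4 MGL KO and 4 WT libraries hold RNA of frozen esophagi, and in the study's breeding the knockout, which removes MGL in every cell, was kept with WT littermates. The mice of this experiment were healthy and untreated. The study's methods state that male and female mice within a range of ages were used in its experiments. The labels give neither the age nor the sex behind a library, nor the hour of tissue collection. They also do not state that each library is a separate mouse, so that a p-value measures the spread between these libraries. MGL degrades the endocannabinoid 2-arachidonoylglycerol.

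Glucocorticoids are adrenal steroids, released in a daily rhythm and under stress or fasting, that cross the cell membrane and bind a receptor held ready in the cytoplasm by heat shock proteins. The enzyme 11β-hydroxysteroid dehydrogenase type 1, product of Hsd11b1, regenerates the active hormone inside the cell, whereas type 2 inactivates it. The bound receptor enters the nucleus, binds DNA as a dimer at palindromic glucocorticoid response elements and raises transcription of genes that restrain inflammation, adjust metabolism and limit its own activity. Induction of Fkbp5, Tsc22d3, Zbtb16 and Sgk1 is used as a readout of receptor activity in many tissues.

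Of the 10 genes, 7 had promoter windows in the RefSeq table used here, 14 windows in all, and Nr3c1, Cebpd and Zbtb16 did not. The windows, made on GRCm38.p6, cover 250 bases before a transcript start, and their positions were obtained by an exact match to GRCm39, the build of the deposited counts. Both strands were searched for the response element core ACANNNTGT, the receptor half-site TGTTCT, the 15-base palindrome of 2 such half-sites, and the core TGCNCNC of the metal response element, through which zinc and cadmium induce metallothioneins. The core and half-sites lie within the palindrome, so a palindrome is counted under each. Over all 32851 windows of the table, 5.84% held the response element core, 16.1% the half-site, 0.00913% (3 windows) the palindrome and 44.4% the metal response core. The 4 windows below are shown because they hold such motifs, which are in capitals, and because Mt1 and Mt2, neighbouring genes, had very different counts. Bases that overlap annotated exons of the gene were left out.
Sgk1, the fifth of its windows, chr10:21869539-21869788, forward strand: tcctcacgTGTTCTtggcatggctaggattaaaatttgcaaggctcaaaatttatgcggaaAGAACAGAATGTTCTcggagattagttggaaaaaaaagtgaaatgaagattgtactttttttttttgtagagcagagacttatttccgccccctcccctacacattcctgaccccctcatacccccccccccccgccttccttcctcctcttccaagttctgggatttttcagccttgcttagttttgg
Tsc22d3, the third of its windows, chrX:139501409-139501521, reverse strand: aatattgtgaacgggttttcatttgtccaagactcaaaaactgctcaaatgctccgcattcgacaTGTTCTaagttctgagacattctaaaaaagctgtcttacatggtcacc
Mt1, chr8:94905467-94905709, forward strand: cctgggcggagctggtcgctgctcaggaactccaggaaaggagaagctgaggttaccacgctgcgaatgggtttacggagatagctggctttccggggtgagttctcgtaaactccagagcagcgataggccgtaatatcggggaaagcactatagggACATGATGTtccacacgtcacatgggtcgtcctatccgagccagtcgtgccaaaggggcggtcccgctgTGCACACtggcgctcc
Mt2, chr8:94898996-94899131, forward strand: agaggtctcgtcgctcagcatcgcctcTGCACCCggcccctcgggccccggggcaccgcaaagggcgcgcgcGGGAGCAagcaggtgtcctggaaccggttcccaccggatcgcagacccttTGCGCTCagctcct

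The Sgk1 window carried the full palindrome at bases 189 to 175 before the start and a further half-site at bases 242 to 237. Among the other Sgk1 windows, the second held the response element core, and the first and the fourth a half-site. In Tsc22d3, the half-site stood at bases 185 to 180. The Mt1 window had 1 response element core at bases 92 to 84 and 1 metal response core at bases 23 to 17, and the full window of Mt2 had 5 metal response cores, of which 3 are in the part shown. The windows of Fkbp5, Hsd11b1, Cebpb and Mt2 held no glucocorticoid motif. A match is a description of letters, not a binding site, and its absence from these short windows tells nothing about the receptor.

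Counts per library summed to between 13479069 and 17090152, and normalized CPM are counts per 1000000 counts, scaled by TMM factors of 0.823 to 1.11. Of the 14864 genes kept by a filter on low counts, 9 were members, and Mt2 did not pass. The targeted gene Mgll was at 83.3, 66.6, 88.3 and 86.7 normalized CPM in WT replicates 1 to 4 and at 12.6, 16.0, 13.1 and 13.2 in MGL KO replicates 1 to 4, and passed the test (log2 fold change -2.57, standard error 0.13, adjusted p = 0.000133, edgeR's quasi-likelihood test). MGL KO replicate 4 stood apart, with a sum of 11568.6 normalized CPM over 8 markers of airway secretory cells and glands against at most 71.6 in any other library, and 655.7 against at most 18.9 over 10 markers of airway ciliated cells (most abundant Bpifa1 and Foxj1). All 8 squamous epithelium markers were above 1 CPM in WT, and their sum ranged from 5505.6 to 18031.9 in WT and from 4703.3 to 17675.6 in MGL KO libraries, lowest in MGL KO replicate 2. That of 10 skeletal muscle markers ranged from 49304.2 to 78865.5 in WT and from 38454.4 to 95255.5 in MGL KO, highest in MGL KO replicate 2. These shares of tissue differ between libraries, and in such bulk samples fewer cells of a type and less RNA per cell cannot be told apart.

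**Figure D1:**
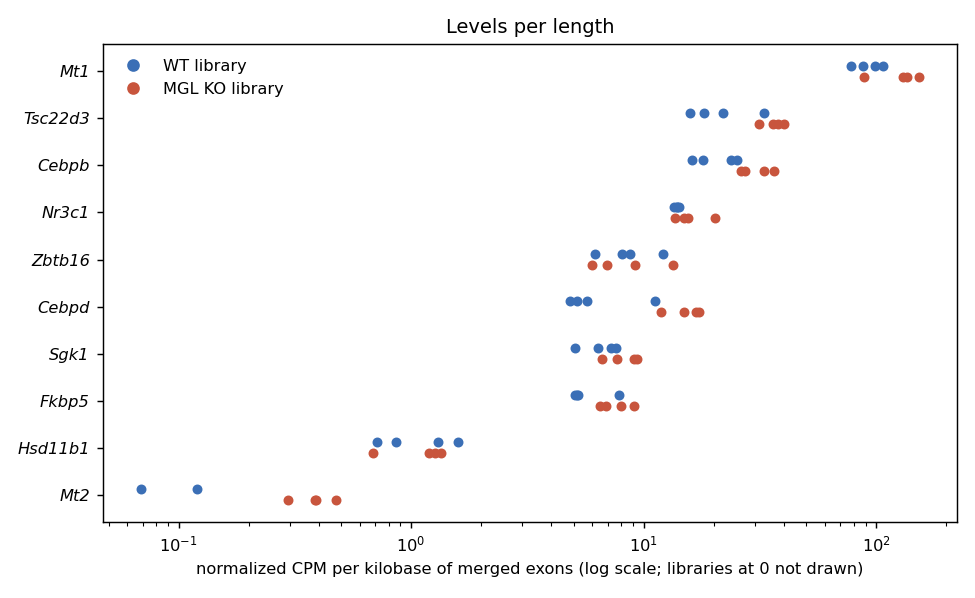
Level of each of the 10 genes in normalized CPM per kilobase of merged exons, on a log scale, with a point for each WT (blue) and MGL KO (red) library. Libraries at 0 are not drawn, which are WT replicates 1 and 4 for Mt2. Mt1 is highest, the WT means of the next 7 genes lie between 5.84 and 22.2, and Hsd11b1 and Mt2 lie lowest.

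Levels of different genes were compared per kilobase of merged exons. In WT, Mt1, which encodes a small zinc-binding metallothionein, led with 92.7 ± 12.8 normalized CPM per kilobase (SD, n = 4). It was followed by Tsc22d3 at 22.2 ± 7.53 and Cebpb at 20.8 ± 4.40 (SD, n = 4), whose WT libraries overlapped. The receptor gene Nr3c1 was at 13.9 ± 0.307 per kilobase (SD, n = 4), below every WT value of Tsc22d3 and Cebpb, and above every WT value of Zbtb16 (8.77 ± 2.50; SD, n = 4). Zbtb16, Cebpd (6.71 ± 3.01), Sgk1 (6.57 ± 1.11) and Fkbp5 (5.84 ± 1.35; SD, n = 4) overlapped one another. The activating enzyme gene Hsd11b1 was at 1.11 ± 0.403 per kilobase (SD, n = 4), below all of these, and its antagonist Hsd11b2 at 0.0529 ± 0.0610. Mt2 was at 0.0473 ± 0.0585 (SD, n = 4). Over the length of the canonical transcript alone, Fkbp5 (18.1), Nr3c1 (16.9) and Sgk1 (16.1) stood next below Cebpb (20.8), so the order of the middle genes depends on the length used.

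Nr3c1, the receptor itself, lies on chromosome 18. Its WT libraries were at 106.4, 109.7, 112.3 and 110.0 normalized CPM (replicates 1 to 4), and its MGL KO libraries at 122.6, 159.6, 116.9 and 107.7. The groups overlapped through MGL KO replicate 4, and MGL KO replicate 2 was highest. WT libraries differed by a standard deviation of only 0.0319 on the log2 scale, a spread smaller than that of all but 0.875% of the tested genes. That share is over genes of every level, not of like level, and the level of Nr3c1 was above that of 90.6% of them. Its log2 difference of MGL KO minus WT was 0.21 (standard error 0.13), and 0.08 without MGL KO replicate 2. Exons of the antisense RNA Gm58395 overlap 14.8% of the Nr3c1 exon bases, and whether the counting used strand is not given in the sources used here.

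Hsd11b1 (chr1:192903918-192946489, reverse strand of GRCm39), whose product regenerates active corticosterone from its inert form, was counted at a low level. Its WT libraries were at 7.92, 4.28, 3.55 and 6.52 normalized CPM, and its MGL KO libraries at 6.31, 3.43, 5.98 and 6.69. The groups overlapped, and the log2 fold change was 0.01 with a standard error of 0.32, running from -0.15 without WT replicate 3 to 0.23 without WT replicate 1. Libraries of a group differed by up to 2.23-fold in WT and 1.95-fold in MGL KO, lowest in WT replicate 3 and MGL KO replicate 2 and highest in WT replicate 1 and MGL KO replicate 4. Summed macrophage markers, of which Lyz2 was most abundant, were lowest (292.6 and 289.6 normalized CPM) and highest (1150.5 and 1541.6) in the same libraries. So were summed neutrophil markers, lowest at 5.52 and 4.06 and highest at 23.6 and 20.8 normalized CPM. Squamous epithelium and fibroblast markers shared the lowest libraries, and the squamous sum was highest in others (WT replicate 2 and MGL KO replicate 1). The part of tissue composition in these values was not tested.

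**Figure D2:**
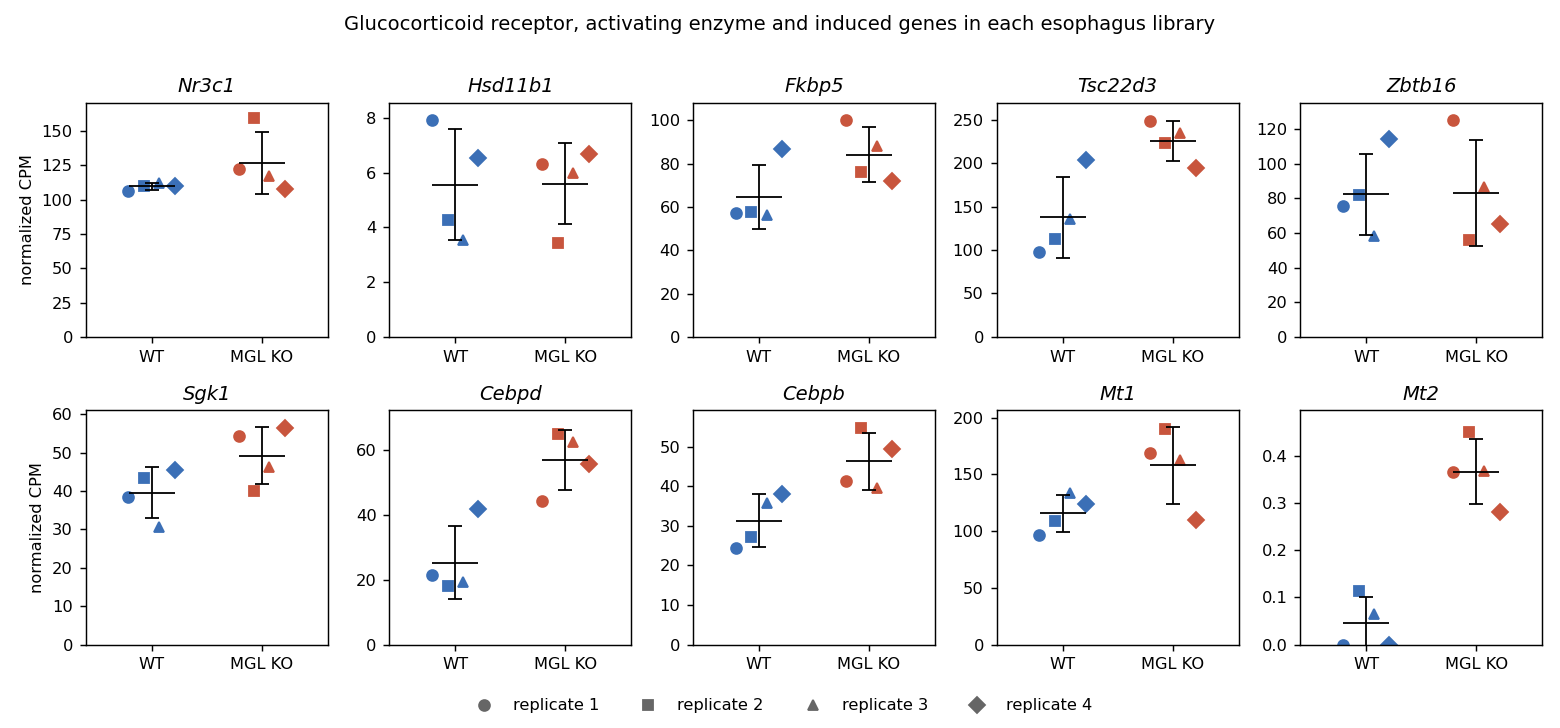
Normalized CPM of the 10 genes in each of the 4 WT (blue) and 4 MGL KO (red) libraries, each panel with its own axis from 0. Symbols mark the replicate number, and black bars the mean ± SD of a group. Cebpd, Cebpb and Mt2 are the genes whose groups do not overlap, and WT replicate 4 lies with the MGL KO libraries in Fkbp5 and Tsc22d3.

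Fkbp5 (chr17:28618058-28737521, reverse strand) encodes the co-chaperone FKBP51, which lowers the receptor's affinity for hormone and so closes a feedback loop. In WT, 3 libraries were at 57.4, 57.9 and 56.1 normalized CPM, and replicate 4 was at 87.0. The MGL KO libraries were at 100.4, 76.3, 88.1 and 71.8. Thus every MGL KO library exceeded WT replicates 1 to 3, and WT replicate 4 exceeded MGL KO replicates 2 and 4. Mean expression was 64.6 ± 15.0 in WT and 84.2 ± 12.8 in MGL KO (SD, n = 4). On the log2 scale the difference was 0.38 (standard error 0.17), or 0.56 without WT replicate 4.

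Tsc22d3 (chrX:139440091-139501408, reverse strand), encoding the glucocorticoid-induced leucine zipper GILZ, an inhibitor of inflammatory transcription factors, showed the same arrangement. Its WT libraries were at 98.0, 112.6, 136.0 and 203.4 normalized CPM. The MGL KO libraries were at 248.7, 223.0, 234.9 and 195.0, all above WT replicates 1 to 3, while WT replicate 4 was above MGL KO replicate 4. The means were 137.5 ± 46.7 in WT and 225.4 ± 22.9 in MGL KO (SD, n = 4), and on the log2 scale they differed by 0.71 (standard error 0.22). This gene varied little among the MGL KO libraries, 1.28-fold from lowest to highest, and 2.08-fold among the WT libraries.

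Zbtb16 (chr9:48563141-48748664, reverse strand) encodes the zinc finger repressor PLZF and is strongly induced by glucocorticoids in many cells. Its values were 75.5, 81.7, 58.0 and 114.2 normalized CPM in WT and 125.0, 56.1, 86.3 and 65.4 in MGL KO. The ranges nearly coincided, with WT replicate 4 and MGL KO replicate 1 at their tops. Group means were 82.3 ± 23.5 and 83.2 ± 30.6 (SD, n = 4), a log2 fold change of 0.02 (standard error 0.28) that ran from -0.24 without MGL KO replicate 1 to 0.22 without WT replicate 4.

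Sgk1 (chr10:21758083-21875802, forward strand), the serum- and glucocorticoid-regulated kinase that controls ion channels and transporters, has the palindrome-bearing window shown above. It was at 38.4, 43.5, 30.6 and 45.6 normalized CPM in WT and at 54.4, 40.0, 46.3 and 56.3 in MGL KO. MGL KO replicate 2 fell within the WT range, and the other MGL KO libraries were above all of WT. Its log2 fold change was 0.32 (standard error 0.16). Antisense RNAs overlap 8.7% and 5.7% of its exon bases.

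Cebpd (chr16:15705150-15708895, forward strand), a C/EBP transcription factor of the acute-phase and stress response, had the largest difference of the 9 tested genes. It stood at 21.4, 18, 19.3 and 41.9 normalized CPM in WT and at 44.3, 64.9, 62.6 and 55.8 in MGL KO. All MGL KO libraries were above all WT libraries, although WT replicate 4 came close to MGL KO replicate 1. The means were 25.1 ± 11.3 and 56.9 ± 9.25 (SD, n = 4), and the log2 fold change 1.18 (standard error 0.27), or 1.54 without WT replicate 4. Exons of Spidr on the opposite strand overlap 15.0% of its exon bases.

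Cebpb (chr2:167530835-167532338, forward strand), its relative, is induced in inflammation and needed for differentiation of several epithelia and fat cells. WT libraries were at 24.3, 27.1, 35.8 and 38.0 normalized CPM, and MGL KO libraries at 41.2, 54.8, 39.6 and 49.5. The groups were separate, by a margin between WT replicate 4 and MGL KO replicate 3 that was small beside the range of each group. Its log2 fold change was 0.56 (standard error 0.17). Exons of Peds1 on the opposite strand cover 20.7% of the Cebpb exon bases.

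Mt1 (chr8:94905710-94906955, forward strand), induced by zinc as well as by glucocorticoids, was at 96.7, 108.9, 133.1 and 123.5 normalized CPM in WT and at 168.6, 189.6, 163.0 and 110.0 in MGL KO. MGL KO replicates 1 to 3 were above all WT libraries, and MGL KO replicate 4, the library with the airway markers, fell within them. The means were 115.5 ± 16.0 and 157.8 ± 33.8 (SD, n = 4). The fold change on the log2 scale was 0.45 (standard error 0.18), or 0.59 without MGL KO replicate 4. In each group, Mt1 was highest in the library with most summed skeletal muscle markers (WT replicate 3 and MGL KO replicate 2) and lowest in the library with least (WT replicate 1 and MGL KO replicate 4), and the smooth muscle sum was highest (10196.9 and 13556.7 normalized CPM) and lowest (6318.8 and 6259.8) in the same libraries. Whether muscle content sets the Mt1 level was not tested.

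Mt2 (chr8:94898819-94900207, forward strand), which lies beside Mt1 and is usually induced with it, was hardly counted. It had 0, 2, 1 and 0 counts in the WT libraries and 6, 5, 6 and 5 in the MGL KO libraries, where 3 counts correspond to 0.167 to 0.271 normalized CPM. Over pooled libraries, 22 against 3 counts give a ratio of 7.88 (95% exact interval 2.37 to 41.1, counting error only), and the gene was not tested. Mt1, by contrast, had between 1734 and 2754 counts a library. The exons of the antisense RNA Gm45774 overlap 82.4% of the Mt2 exon bases, those of Mt1 overlapped no other annotated gene, and the Mt2 transcript matched the genome nowhere outside its own locus at 95% identity over 50 bases. How the authors' counting treated such overlaps was not tested, and the Mt2 counts should be read with that limit.

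**Figure D3:**
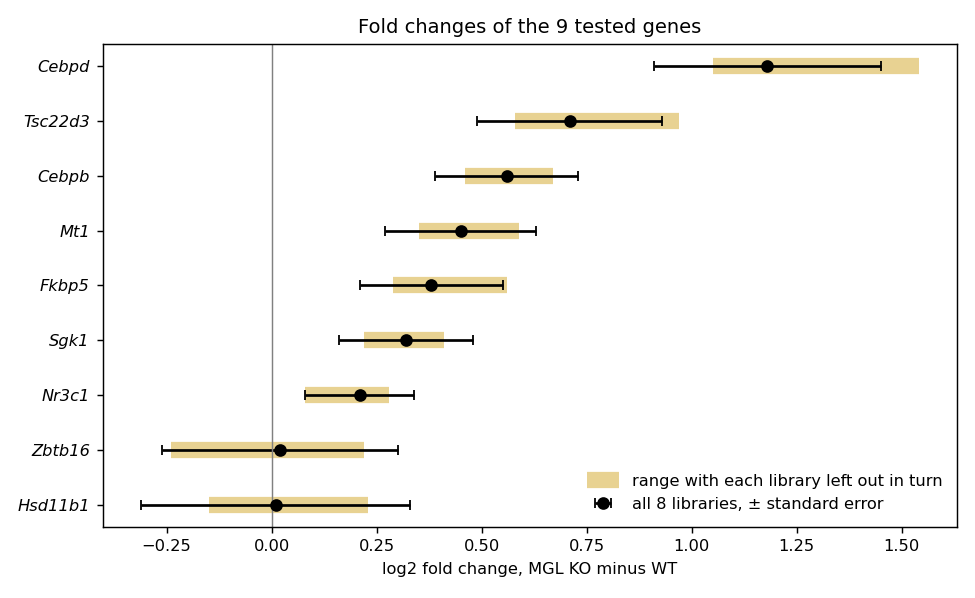
Log2 fold change of MGL KO minus WT for the 9 tested genes, with its standard error (black) and the range over fits that leave out 1 library each (yellow). Cebpd (1.18), Tsc22d3 (0.71) and Cebpb (0.56) are farthest from 0, and the ranges of Hsd11b1 and Zbtb16 include 0.

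All 9 tested genes had a log2 fold change above 0, against 53.0% of all tested genes, and their median was 0.38, against 0.019 for all tested genes. Since these values took part in the choice of the genes, the counts are descriptive. At an adjusted p under 0.05 in edgeR's quasi-likelihood test, 0 of the 9 were called, with adjusted p between 0.359 (Cebpd) and 0.992 (Hsd11b1), in a comparison that called 0.0471% of the tested genes (0.0202% higher and 0.0269% lower in MGL KO). Without WT replicate 4, Cebpd was called (adjusted p = 0.0428 in edgeR's quasi-likelihood test), where the test called 0.0332% of genes. The unadjusted p was under 0.05 for 4 (Cebpd, Cebpb, Tsc22d3 and Mt1), against 8.65% of all tested genes. Cebpd was the 1 gene called by edgeR's exact test (adjusted p = 0.0180), which called 0.431% of all genes, and by DESeq2 (adjusted p = 0.00896), which called 0.935%. With limma-voom and quality weights, which called 0.168%, 0 of the 9 were called. The groups were separate and higher in MGL KO for 2 of the 9 (Cebpd and Cebpb), against 2.72% of the tested genes. Without WT replicate 4 the number was 4, with Fkbp5 and Tsc22d3 added, against 3.83% of genes. It was 5 without MGL KO replicate 4, with Nr3c1, Tsc22d3 and Mt1 added, against 5.02%.

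**Figure D4:**
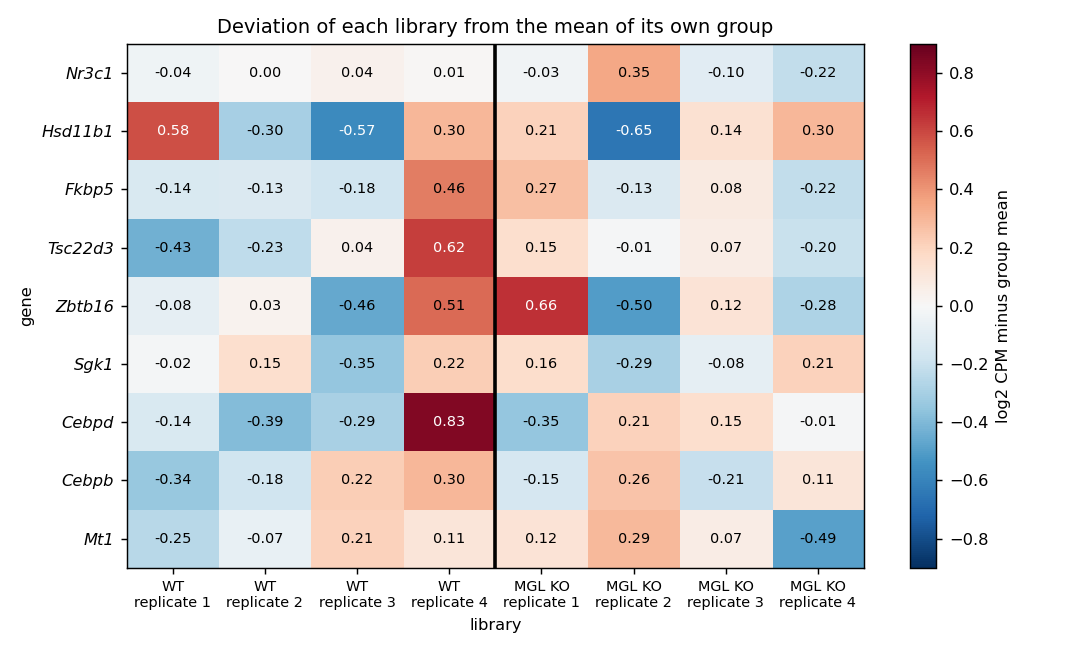
Deviation of each library from the mean of its own group, in log2 CPM, for the 9 tested genes (rows) and 8 libraries (columns, WT left of the black line). Red is above and blue below the group mean. WT replicate 4 is above its group mean for every gene, by 0.83 for Cebpd, and Nr3c1 is nearly flat in WT.

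Deviations from the group mean do not use the difference between the groups, and they show how the genes vary among the WT and among the MGL KO libraries. WT replicate 4 had the highest WT value for 6 of the 9 genes and the lowest for 0, whereas it was the highest WT library for 18.2% of all tested genes. Its deviations were 0.62 for Tsc22d3, 0.51 for Zbtb16, 0.46 for Fkbp5 and 0.22 for Sgk1. MGL KO replicate 1 was the highest of its group for Zbtb16 (0.66), Fkbp5 (0.27) and Tsc22d3 (0.15), and the lowest for Cebpd (-0.35). MGL KO replicate 2 was the highest for Nr3c1, Cebpd, Cebpb and Mt1 and the lowest for Hsd11b1, Zbtb16 and Sgk1, while over all tested genes it was the highest of its group for 35% and the lowest for 39.3%. For MGL KO replicate 1 the share highest over all tested genes was 14.4%. Replicate numbers did not link libraries across the groups.

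Between pairs of genes, the deviations of Fkbp5 correlated with those of Zbtb16 (Pearson r = 0.87 over 8 libraries) and Tsc22d3 (r = 0.85), ranks 31 and 41 among the 14863 other tested genes. Values were lower for Tsc22d3 and Zbtb16 (0.53, rank 818 for Tsc22d3) and for Fkbp5 and Sgk1 (0.46, rank 1314 for Fkbp5). Sgk1 and Tsc22d3 had r = 0.16 (rank 7070 for Sgk1). Tsc22d3 and Cebpd had r = 0.69, Sgk1 and Zbtb16 0.70, and Fkbp5 and Cebpd 0.58. The values of Cebpd with Tsc22d3 and Fkbp5 rested mostly on WT replicate 4 (deviations 0.83 for Cebpd, 0.62 for Tsc22d3 and 0.46 for Fkbp5). In MGL KO replicate 1, by contrast, Cebpd was lowest of its group (-0.35) and Fkbp5 and Tsc22d3 were highest (0.27 and 0.15). Cebpb had r = 0.59 with Tsc22d3, 0.55 with Cebpd, 0.14 with Fkbp5 and -0.28 with Zbtb16. For the receptor gene, r was -0.041 to Fkbp5, 0.15 to Tsc22d3, -0.32 to Zbtb16 and -0.60 to Sgk1, and among the members it was highest to Mt1 (0.74) and lowest to Hsd11b1 (-0.70). As Nr3c1 was nearly flat in WT, these values rest almost entirely on the MGL KO libraries. These values are a description over 8 libraries that differ in depth and tissue composition, which all genes of a library share.

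No member was among the 3 tested genes most like another member. Fkbp5 was most like Snrk (r = 0.981), Bmpr1b (0.961) and Sgcd (0.947), and among those most like Tsc22d3 were Tnfaip8l3 (0.978) and Klhl23 (0.956). Zbtb16 was most like Natd1 (0.978), Anapc1 and Hip1 (both 0.955), and Sgk1 most like Sh3bp4 (0.981), Ash1l (0.973) and Adnp2 (0.965). Cebpd was closest to Eed (0.971), Nudt16l1 (0.967) and Rragb (0.923), and Cebpb to Mgrn1 (0.941), St3gal5 (0.938) and Unc5c (0.937). Mt1 was closest to Gpc1 (0.993) and to the skeletal muscle genes Ldb3 (0.992) and Myh8 (0.989). For Nr3c1 they were Adipor1 (0.996), Amz2 (0.993) and Rdx (0.990), and for Hsd11b1 Nsf (0.993), Tbc1d2b (0.986) and Nt5dc2 (0.982). With 8 libraries and 14864 genes, high values arise for many genes.

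**Figure D5:**
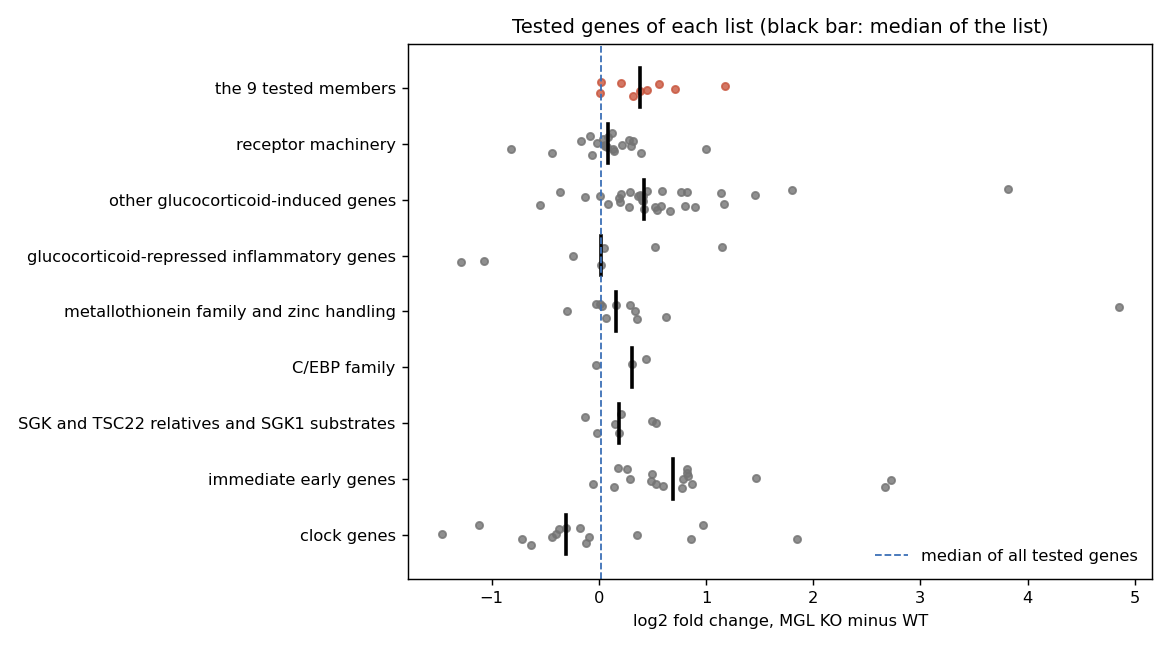
Log2 fold change (MGL KO minus WT) of every tested gene of the 8 pathway lists and of the 9 tested members (red), with a black bar at the median of each list and a dashed line at the median of all tested genes (0.019). Medians are highest for immediate early genes (0.69) and other glucocorticoid-induced genes (0.42) and lowest for clock genes (-0.31).

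The rest of the pathway was read from lists that were likewise compiled with earlier results of these data known. Of 20 tested genes of receptor machinery (chaperones, ligand enzymes, coregulators and steroid exporters), 0 were called in either direction, and their median log2 fold change was 0.08, with 14 above 0. Hsp90aa1, which encodes the inducible HSP90 that keeps the receptor ready for hormone, was at 218.6 ± 26.1 in WT and 437.0 ± 184.6 normalized CPM in MGL KO (SD, n = 4), with every MGL KO library above every WT library. Its log2 fold change of 1.00 (standard error 0.27) was 0.69 without MGL KO replicate 4, in which it was highest (686.9). Ptges3, the p23 co-chaperone gene, had 0.39 (standard error 0.16). The steroid exporter genes Abcb1a and Abcb1b had the lowest values, -0.82 (standard error 0.27) and -0.44 (standard error 0.21).

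Among 31 tested genes of the other glucocorticoid-induced list, 28 had log2 fold changes above 0 and the median was 0.42. The numbers called were 1 higher and 0 lower. The called gene was Dusp1, a phosphatase that switches off mitogen-activated protein kinases, which rose from 56.9 ± 6.42 to 198.2 ± 63.8 normalized CPM (SD, n = 4; adjusted p = 0.0494, edgeR's quasi-likelihood test). Dusp1 is also an immediate early gene, and with 1 library left out its log2 fold change was 1.56 to 1.91 against 1.80, while the call was lost in 7 of the 8 fits. Lcn2, which encodes the iron-binding lipocalin 2, had the highest log2 fold change, 3.82 (standard error 1.59), but it rested on MGL KO replicate 4 at 226.9 normalized CPM, the other MGL KO libraries being at 1.66 to 5.08, and it was -0.33 without that library. Mertk, a receptor for apoptotic cells, and Txnip, a thioredoxin inhibitor, were lowest with -0.55 (standard error 0.26) and -0.36 (standard error 0.18). Without MGL KO replicate 4 the median of the list was 0.45, and without WT replicate 4 it was 0.48.

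Inflammatory genes that glucocorticoids repress were mostly near the limit of detection, 7 of 15 being tested and 0 called in either direction, with a median of 0.02 (from -0.60 without MGL KO replicate 4 to 0.17 without WT replicate 3). Il1a, encoding an epithelial alarmin, ranged from 0.913 to 1.38 normalized CPM in WT and from 0.180 to 0.612 in MGL KO (log2 fold change -1.29, standard error 0.37). Mmp9, a matrix protease gene, had -1.07 (standard error 0.82), but -0.04 without WT replicate 1, where it was at 10.6 normalized CPM, and -2.02 without MGL KO replicate 4. Ptgs2, encoding cyclooxygenase-2, had 0.52 (standard error 0.48), from 0.10 without MGL KO replicate 1 to 0.79 without MGL KO replicate 3. Nos2, the inducible nitric oxide synthase gene, had 1.15 (standard error 0.80), set by 8.39 normalized CPM in MGL KO replicate 2, without which it was -0.34.

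None of the 11 tested genes of metallothioneins and zinc handling was called (0 higher, 0 lower), and their median was 0.16 (0.03 without MGL KO replicate 4 and 0.27 without WT replicate 2). Mt3 was at 3.05 ± 0.804 normalized CPM in WT and 4.72 ± 1.16 in MGL KO (SD, n = 4), 0.63 on the log2 scale (standard error 0.27). Mt4, the metallothionein of stratified squamous epithelium, had the highest level per length of the family, 396.2 ± 167.2 normalized CPM per kilobase in WT (SD, n = 4), and a log2 fold change of -0.03 (standard error 0.42). Slc39a4, a zinc importer gene, had 4.85 (standard error 1.93) that rested on 128.7 normalized CPM in MGL KO replicate 4, and -1.19 without it. Slc30a1, which encodes a zinc exporter, had -0.30 (standard error 0.19), or -0.17 without WT replicate 4.

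Of the other C/EBP genes, 3 were tested and 0 called, with a median of 0.31 (0.06 without MGL KO replicate 4 and 0.11 without WT replicate 3). Cebpg, a dimer partner of the family, was at 60.5 ± 2.24 in WT and 81.9 ± 15.0 normalized CPM in MGL KO (SD, n = 4), with all MGL KO libraries above all WT libraries (0.44 on the log2 scale, standard error 0.13). Cebpa had 0.31 (standard error 0.41), or -0.12 without MGL KO replicate 4 and 0.56 without MGL KO replicate 2, and the stress-induced Ddit3 -0.03 (standard error 0.20). Of 7 tested genes related to Sgk1 and Tsc22d3, 0 were called, with a median of 0.19 (0.12 without MGL KO replicate 4). Tsc22d1, the relative of Tsc22d3 that responds to TGF-β, was at 306.9 ± 27.5 and 434.5 ± 40.5 normalized CPM (SD, n = 4; log2 fold change 0.50, standard error 0.12), its groups separate, and Tsc22d4 had -0.02 (standard error 0.11). Ndrg1, a phosphorylation substrate of SGK1, had 0.53 (standard error 0.32), which rested on MGL KO replicate 2 at 79.6 normalized CPM and was 0.10 without it. Sgk3 had -0.13 (standard error 0.17), from -0.21 without MGL KO replicate 2 to -0.01 without WT replicate 1.

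Immediate early genes, which answer growth factors, stress and tissue handling within minutes, had a median of 0.69, with 17 of 18 above 0 and 0 called. Fos and Fosb were highest with 2.73 (standard error 0.52) and 2.67 (standard error 0.77), the latter 1.32 without MGL KO replicate 1, and Junb and Nr4a2 lowest with -0.05 (standard error 0.15) and 0.14 (standard error 0.22). Clock genes, which glucocorticoids also reset, had a median of -0.31, with 4 of 15 above 0 and 0 called, and the median was -0.16 without WT replicate 4 and -0.17 without MGL KO replicate 3 or 4. Nfil3, a transcriptional repressor, was at 6.48 ± 0.458 in WT and 23.4 ± 9.07 normalized CPM in MGL KO (SD, n = 4; log2 fold change 1.85, standard error 0.27, adjusted p = 0.0966 in edgeR's quasi-likelihood test), and Npas2 had 0.97 (standard error 0.34). The clock output gene Dbp was at 88.3 ± 33.9 and 32.0 ± 19.7 normalized CPM (SD, n = 4; log2 fold change -1.46, standard error 0.42), and Per3 had -1.12 (standard error 0.35). The part of the hour or manner of dissection in the values of the 10 genes was not tested.

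At an unadjusted p under 0.05 the counts were 4 of 20 genes of receptor machinery, 12 of 31 other glucocorticoid-induced genes, 1 of 7 repressed inflammatory genes, 3 of 11 metallothionein and zinc genes, 1 of 3 C/EBP genes, 1 of 7 relatives of Sgk1 and Tsc22d3, 12 of 18 immediate early genes and 7 of 15 clock genes, against 8.65% of all tested genes. Over all lists, limma-voom with quality weights, which called 0.168% of all tested genes, called Dusp1 and Zfp36, a gene for an RNA-destabilising protein. The exact test, which called 0.431% of all tested genes, called 7 (Atf3, Dusp1, Errfi1, Fos, Nfil3, Nfkbia and Zfp36). DESeq2, which called 0.935%, called these with Cdkn1a, Dbp, Fosb, Hsp90aa1, Maff and Tsc22d1, 13 in all. With 1 library left out, the log2 fold changes of Mt4 (-0.37 to 0.29), Ddit3 (-0.19 to 0.11), Tsc22d4 (-0.08 to 0.05), Junb (-0.18 to 0.04) and Nr4a2 (-0.02 to 0.23) took either sign.

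Marker lists of other cells bear on where these genes were read. The sum over 7 macrophage markers was 292.6 to 1150.5 normalized CPM in WT and 289.6 to 1541.6 in MGL KO, and that over 8 adipocyte markers 751.0 to 1191.9 in WT and 801.7 to 1335.4 in MGL KO, so the groups overlapped. For macrophages, 1 of the 7 markers had the higher mean in MGL KO, and the top MGL KO sum was that of replicate 4, the next being 365.0. For adipocytes, 7 of the 8 markers had the higher mean in MGL KO, and 3 of the 4 MGL KO sums were above every WT sum. For fibroblasts, 0 of 8 markers had the higher mean in MGL KO, with sums of 2159.7 to 3255.7 in WT and 1445.2 to 3369.1 in MGL KO. The ranges overlapped also for smooth muscle, neutrophils, eosinophils, thyroid and cartilage. Adrenal cortex markers, the source tissue of the hormone, summed to 5.23 to 8.59 normalized CPM over all libraries, with 3 of 6 genes at 0 in every library. WT replicate 4, highest in 6 of the 9 genes, had a squamous epithelium sum of 10725.3 and a skeletal muscle sum of 61184.0, inside the range of the other WT libraries. The part of tissue composition in the values of WT replicate 4 was not tested.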

How the data were processed

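Esophagi of 4 MGL KO and 4 WT mouse libraries had been frozen before RNA extraction and poly(A) selection. The authors checked reads with FastQC 0.11.9, trimmed them with Cutadapt, aligned them to GRCm39 with STAR 2.7.10b and deposited whole-number counts per gene symbol, without normalization. The counting tool, its annotation and its use of strand are not given in the sources used here, so reads of overlapping antisense genes cannot be told apart. The members and lists were chosen with earlier results of these data known.

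Genes were kept by filterByExpr at a minimum count of 10 (14864 of 22721 genes with a count). Log2 fold changes and p-values are from edgeR 4.0.16 (quasi-likelihood test on all kept genes, TMM factors, Benjamini-Hochberg adjustment, threshold 0.05), in R 4.3.3, and log2 CPM used a prior count of 1. The study's methods name edgeR's exact test, run as an alternative beside DESeq2 1.42.0, limma-voom (limma 3.58.1), RLE or no factors, other filters, the replicate block, a threshold of 0.1 and leaving out each library. The script was tested on simulated data. Positions are from GENCODE mouse M39, where 93.6% of symbols were found. Named genes were all members with Mgll, the called and the 2 highest and 2 lowest tested genes of each list, and the 3 genes most like each member, 1 of which is not reported here. Hsd11b2 and the list genes that only other tools called were named after their values were seen. Totals of 13479069 to 17090152 counts make 3 counts equal to 0.167 to 0.271 normalized CPM, and intervals cover counting error only. Replicate numbers were checked as pairs, and protein sequences were not used here.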

Additional observations from a re-analysis of the deposited data

Results flagged for a closer look

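Dixon's test for a library far from the other 3 of its group was applied to the 9 tested genes and to 13 marker sums in both groups, 44 groups in all, and 9 exceeded the critical value at 95%, where chance gives about 1 in 20 groups, or 2.2. Among the members, WT replicate 4 stood above its group for Fkbp5 (87.0 normalized CPM, the next WT library being at 57.9) and for Cebpd (41.9, the next being at 21.4).

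Marker sums stood apart in MGL KO replicate 4 for airway secretory cells and glands (11568.6 normalized CPM, next 71.6), airway ciliated cells (655.7, next 18.9), macrophages (1541.6, next 365.0) and neutrophils (20.8, next 6.49). Small sums stood apart in WT replicate 2 for airway secretory cells and glands (3.88, next 1.83) and in WT replicate 1 for thyroid (4.80, next 0.970) and adrenal cortex (8.59, next 6.13). What part these differences in tissue have in the members' values was not tested.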

How the results depend on the processing

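The number of genes called was 64 in the exact test, 42 in that test without the filter, 137 with DESeq2, 25 with limma-voom and quality weights, 13 at an adjusted p under 0.1, and 2 in the quasi-likelihood test without a filter, against 7. With each library left out it ran from 2 to 5. Members called were 1 in both exact tests and with DESeq2, Cebpd each time, and 0 to 1 with each library left out, the 1 being Cebpd without WT replicate 4 (adjusted p = 0.0428 against 0.359, with a range of 0.00896 to 0.788 over its alternatives). Genes called in the lists were 7 in the exact test, 4 in that test without the filter, 13 with DESeq2, 2 with limma-voom and at 0.1, and 0 in the quasi-likelihood test without a filter, against 1, and 0 to 2 with each library left out. Members whose groups did not overlap were 2 to 5 with each library left out. In those settings 3.46% to 5.08% of all tested genes were separate and higher in MGL KO, against 2.72% with all libraries. With library size alone the members were 3, and the share over all genes was not computed. The cause of these shifts was not tested.

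With the replicate block, the genes called were 2, the members 0 and the list genes 0. Libraries of the same number did not deviate together (correlations -0.14, -0.28, -0.14 and 0.079 for replicates 1 to 4), so they share only a number.

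Log2 fold changes of the members stayed within 1 SD between libraries in all 153 alternative fits. Their sign changed in 12, all of Hsd11b1 and Zbtb16. The median of the tested members was 0.29 to 0.48 with each library left out, an alternative added after seeing the data, as were those of the lists. Mt2 had at most 6 counts in a library, too few to be tested.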
